A study of Mus musculus with 12 samples.

Results

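The genes described here encode axon guidance ligands and their receptors, together with the teneurins. They were chosen by symbol: class 3 to 7 semaphorins, plexins, neuropilins 1 and 2, ephrins, Eph receptors, Robo receptors, Slits, netrins, Dcc, Unc5 genes and teneurins. Of 73 such genes on the array, 57 were kept because a probe was detected (detection p-value below 0.05) on at least 3 of the 12 arrays. These 57 stood among 11924 genes tested, and the kept probe with the highest mean raw intensity stood for its gene. One of them, Unc50, matched by name only and encodes no netrin receptor.

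The RNA came from the developing eyes of E10.5 mouse embryos on a mixed C57BL6 and FVB background. The 4 groups were distal optic vesicle (the prospective retina) from Bmp4 KO embryos, distal optic vesicle from WT embryos, surface ectoderm (the prospective lens) from Bmp4 KO embryos, and surface ectoderm from WT embryos, with 3 arrays each. Bmp4 encodes a secreted growth factor, and the series title places its deletion in the optic vesicle; the driver of the deletion and the allele are not given in the sources used here. Tissue was laser-microdissected from 10 µm frozen sections, and 15 ng of RNA was amplified per sample. The design text counts 3 embryos per genotype and speaks of pooled RNA. Nothing states that the 3 arrays of a group are 3 embryos, so the p-values may measure technical spread only.

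On each array 45.0% to 46.7% of all probes and 37 to 46 of the guidance genes were detected. Bmp4 stood at 4.27, 5.18 and 4.31 in KO optic vesicle and at 8.26, 8.30 and 8.22 in WT optic vesicle (normalised log2 intensity, replicates 1 to 3), a difference of -3.67 (limma adjusted p = 1.0e-04). In surface ectoderm its difference of -1.10 did not pass (adjusted p = 0.14). As a check of the tissues, 12 of 15 measured lens and surface ectoderm markers were lower in WT optic vesicle than in WT surface ectoderm, and 3 of 5 optic vesicle markers were higher. In bulk tissue, fewer cells of a type and less RNA per cell cannot be told apart.

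Guidance proteins tell growing axons and migrating cells where to go. Ephrins are membrane-bound ligands of the Eph receptor kinases, semaphorins signal through plexins and neuropilins, Slits through Robo receptors, and netrins through Dcc and Unc5 receptors. In the eye, opposed gradients of ephrins and Eph receptors across the retina later order the projection of ganglion cell axons, with ephrin-B genes on the dorsal side, and teneurins are adhesion proteins that help match partners in visual circuits.

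All levels are normalised log2 intensities, on which a difference of 1 is a factor of 2. A level is compared between groups for the same probe, never between genes. A gene passed where the limma adjusted p was below 0.05 over all 11924 genes.

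In KO optic vesicle, 9 of the 57 guidance genes differed from WT: 4 fell (Epha5, Efnb2, Sema3a and Sema3e) and 5 rose (Robo1, Tenm2, Tenm3, Tenm4 and Efna5). This was 15.8% of the guidance genes, against 1.84% of all genes tested. By direction, 1.07% of all genes were called higher and 0.772% lower. The median difference over the 57 was 0.10, and that over all genes -0.02, so the genes did not share a direction. The 3 KO values lay apart from the 3 WT values in 22 of the 57, and in 21.2% of all genes.

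Among the ephrins, Efnb2 encodes ephrin-B2, a transmembrane ligand of EphB and EphA4 receptors that marks dorsal retina and arteries. On the brightest probe of each gene, Efnb2 and Robo1 were the 2 guidance genes that passed between the genotypes in both tissues. The promoters of this pair are shown for that reason. The sequences are RefSeq windows on GRCm38.p6, from 250 bases before to 50 bases after the annotated start. Capitals mark the motifs searched for on both strands: GGCGCC, a site bound by BMP SMAD proteins, AGGTGTGA, a T-box site, and CATGTG, an E-box that MITF can bind.
Efnb2, chr8:8661193-8661492, minus strand: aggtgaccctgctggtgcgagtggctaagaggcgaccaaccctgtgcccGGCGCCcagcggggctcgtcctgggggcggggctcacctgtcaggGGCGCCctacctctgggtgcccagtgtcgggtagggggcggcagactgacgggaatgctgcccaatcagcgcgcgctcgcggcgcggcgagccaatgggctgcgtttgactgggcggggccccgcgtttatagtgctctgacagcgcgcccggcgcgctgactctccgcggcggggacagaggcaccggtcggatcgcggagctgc
Robo1, chr16:72662899-72663198, plus strand: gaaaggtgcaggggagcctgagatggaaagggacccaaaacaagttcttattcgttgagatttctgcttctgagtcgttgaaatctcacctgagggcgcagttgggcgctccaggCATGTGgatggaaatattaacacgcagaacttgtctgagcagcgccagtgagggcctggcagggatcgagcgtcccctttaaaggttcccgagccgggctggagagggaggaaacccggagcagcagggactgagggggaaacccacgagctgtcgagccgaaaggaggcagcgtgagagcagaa

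The Efnb2 window held GGCGCC at 2 places and had 72.3% G and C bases, while the Robo1 window held CATGTG at 1 place and had 57.0%. RefSeq gave 66 promoters for 51 of the 57 guidance genes. GGCGCC was in 19.7% of these and in 11.9% of all 32851 promoters of the same length. For CATGTG the shares were 10.6% and 14.2%, and for AGGTGTGA 1.5% and 1.3%. Among guidance genes that fell in KO optic vesicle, GGCGCC was in 1 of 4 promoters, that of Efnb2, and CATGTG in 1. Among those that rose, GGCGCC was in 0 of 6 promoters and CATGTG in 3. The median content of G and C was 63.7% in the guidance gene promoters and 52.7% in all promoters. A match is a string of letters, and no binding was measured.

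Efnb2 stood at 6.74, 6.79 and 6.41 in KO optic vesicle and at 8.83, 8.63 and 9.02 in WT optic vesicle. Every KO array lay below every WT array, and the difference of -2.18 ± 0.22 (SE) was a 4.54-fold fall (adjusted p = 6.0e-05). It passed in each of the 6 fits that left out 1 array, with values between -2.28 and -2.06. Efnb1, the other ephrin-B gene that is high in surface ectoderm, and Efnb3 did not pass: Efnb3 averaged 7.05 ± 0.16 in KO and 7.73 ± 0.09 in WT optic vesicle (SD, n = 3 each).

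Efna5 encodes ephrin-A5, a lipid-anchored repellent of axons that bear EphA receptors. It stood at 10.21, 10.44 and 10.63 in KO optic vesicle and at 9.18, 9.44 and 9.85 in WT optic vesicle. The groups did not overlap, and Efna5 rose 1.91-fold (difference 0.94 ± 0.16 SE, adjusted p = 0.007). Its second probe gave a larger difference of 1.79, which also passed. Efna1 and Efna4, the other measured ephrin-A genes, did not pass, with differences of 0.11 and 0.20.

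Epha5, a receptor of ephrin-A ligands, had the largest fall among the guidance genes in optic vesicle. Its levels were 6.03, 5.51 and 6.33 in KO optic vesicle, against 8.17, 8.37 and 8.18 in WT optic vesicle. The 3 KO values were all below the WT values, by 2.28 on average (± 0.35 SE, 4.86-fold, adjusted p = 0.0021). Of its 4 other kept probes, 2 also passed, at -1.85 and -2.07 and detected on none of the KO optic vesicle arrays, and 2 did not, at -0.95 and -0.44. The receptor gene thus fell in the same samples in which the ligand gene Efna5 rose. The other 5 measured EphA genes and the 3 measured EphB genes did not pass, with EphB differences between -0.26 (Ephb4, a receptor of ephrin-B2 known in veins, adjusted p = 0.45) and 0.54. At an unadjusted p below 0.05 there were 0 EphB genes and no EphA gene besides Epha5. Ephb2 was not among the 73 genes named on the array and was not measured. Epha4, which binds ephrins of both classes, differed by -0.18.

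**Figure D1:**
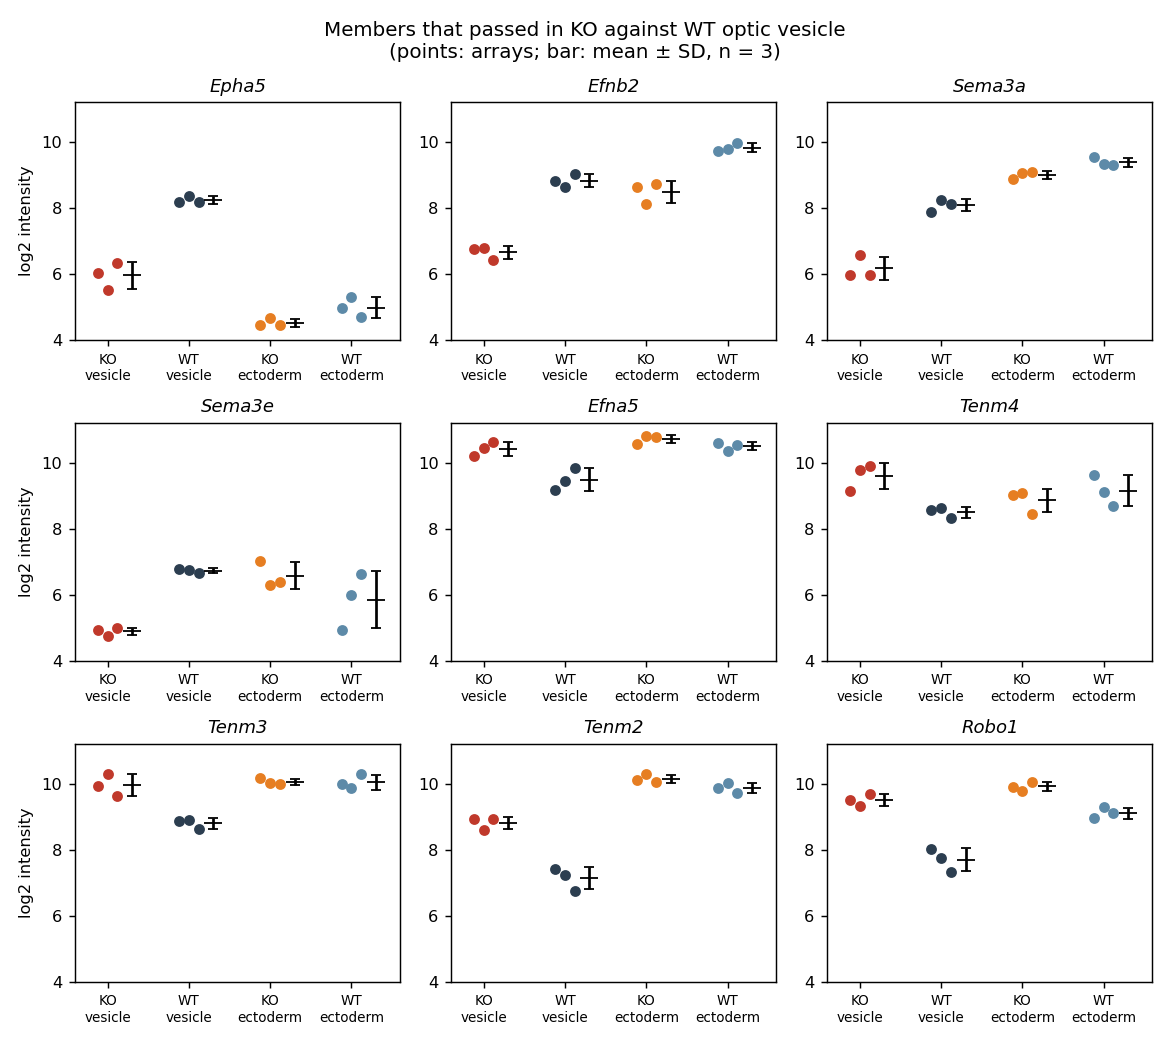
Normalised log2 intensity (vertical axis) of the 9 guidance genes that passed between KO and WT optic vesicle, by group on the horizontal axis. Points are arrays and the bar is the mean ± SD (n = 3). The KO and WT vesicle points do not overlap in any panel; Efnb2 lies between 6.41 and 6.79 in KO vesicle and between 8.63 and 9.02 in WT vesicle.

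Class 3 semaphorins are secreted and mostly repellent. Of the 5 measured, 2 fell in KO optic vesicle and none rose. Sema3a, whose protein binds Nrp1 with a class A plexin, stood at 5.98, 6.56 and 5.96 in KO and at 7.89, 8.24 and 8.11 in WT optic vesicle. KO and WT arrays were separated by more than 1 unit, and the fall was 3.76-fold (difference -1.91 ± 0.23 SE, adjusted p = 3.2e-04). A second, dimmer probe of Sema3a showed a difference of -0.24 that did not pass, and with the mean of both probes the value was -1.07 (adjusted p = 0.10).

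Sema3e encodes a ligand that binds Plxnd1 without a neuropilin. Its levels were 4.93, 4.76 and 4.98 in KO and 6.79, 6.76 and 6.66 in WT optic vesicle. The fall was 3.59-fold (-1.84 ± 0.43 SE, adjusted p = 0.04). The arrays of each group agreed closely, but the KO values lay near the lowest detected signal of their arrays (4.73 to 4.74). Without background correction the difference was -0.77 (adjusted p = 0.055). The call was lost whenever any 1 of the 6 vesicle arrays was left out (adjusted p 0.11 to 0.14, values -1.89 to -1.78), and a second probe gave -0.30. Sema3f, a ligand of Nrp2, missed the threshold: it averaged 10.51 ± 0.09 in KO and 10.96 ± 0.02 in WT optic vesicle (SD, n = 3 each), a difference of -0.45 (adjusted p = 0.062). Its second probe gave -0.46 and passed in the fit over all named probes (adjusted p = 0.039), and a dimmer probe gave -0.04.

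No class 4 to 7 semaphorin, neuropilin or plexin passed in optic vesicle. At an unadjusted limma p below 0.05 there were 4 of 11 of these semaphorins, 0 of 2 neuropilins and 2 of 9 plexins. The lowest p among the semaphorins was that of Sema4f, a transmembrane semaphorin, at 5.76 ± 0.17 in KO and 4.85 ± 0.52 in WT optic vesicle (SD, n = 3 each), a difference of 0.91 (adjusted p = 0.14) on its brightest probe and 0.18 on the other. Plxnc1, the receptor of Sema7a, differed by -1.02 (adjusted p = 0.37). Nrp1 and Nrp2 differed by 0.11 and -0.01, and Plxnd1, the receptor of Sema3e, by 0.62 (adjusted p = 0.41).

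Robo1 encodes a receptor of the Slit repellents. It stood at 9.51, 9.33 and 9.70 in KO optic vesicle and at 8.01, 7.76 and 7.33 in WT optic vesicle. All KO arrays were above all WT arrays, and Robo1 rose 3.51-fold (1.81 ± 0.20 SE, adjusted p = 1.0e-04). A second probe differed by 1.90 without passing, and another, dimmer probe by 0.36. Robo2, its neighbour on chromosome 16 with no protein-coding gene between them, stood at 8.03, 8.38 and 8.49 in KO and at 7.68, 7.32 and 7.11 in WT optic vesicle. Its groups did not overlap, yet the difference of 0.93 did not pass (adjusted p = 0.56). A second Robo2 probe gave 1.91 and passed in the fit over all named probes (adjusted p = 0.039). The remaining Robo2 probes gave 1.76, 1.36, -0.21 and -0.10 without passing. The ligand gene Slit2 differed by -0.80 (adjusted p = 0.58) and Slit3 by 0.55 (adjusted p = 0.71).

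All 3 measured teneurins rose in KO optic vesicle. Teneurins are large transmembrane proteins that bind each other and latrophilins across cell contacts. Tenm2 stood at 8.93, 8.59 and 8.92 in KO and at 7.42, 7.23 and 6.76 in WT optic vesicle, a 3.20-fold rise (1.68 ± 0.20 SE, adjusted p = 2.5e-04). Tenm3, needed for the wiring of ipsilateral visual projections in mice, stood at 9.92, 10.31 and 9.64 in KO and at 8.87, 8.91 and 8.62 in WT optic vesicle, a 2.23-fold rise (1.16 ± 0.18 SE, adjusted p = 0.0024). Tenm4 stood at 9.15, 9.78 and 9.91 in KO and at 8.56, 8.62 and 8.32 in WT optic vesicle, a 2.16-fold rise (1.11 ± 0.27 SE, adjusted p = 0.049). KO and WT arrays did not overlap for any of the 3 genes. The Tenm4 call rested on each of 5 arrays: leaving out KO optic vesicle replicate 2 or 3, or any WT optic vesicle array, gave adjusted p between 0.11 and 0.19 and values between 0.96 and 1.17. Further probes of Tenm3 (0.94) and Tenm4 (1.04, 0.24 and 0.54) had the same sign and did not pass. The teneurin Tenm1 was below the detection filter.

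Netrins are secreted or, for netrin-G, membrane-anchored cues. Ntn1 was not among the 73 genes named on the array and was not measured. None of the 4 measured passed in optic vesicle, and 1 had an unadjusted p below 0.05. That gene, Ntn3, stood at 8.06, 8.77 and 7.94 in KO and at 6.92, 6.94 and 6.52 in WT optic vesicle, a difference of 1.46 (95% confidence interval 0.40 to 2.52, adjusted p = 0.20). The Ntn3 arrays did not overlap. The repulsive netrin receptor gene Unc5c differed by -0.82 (adjusted p = 0.28), and Dcc, the attractive receptor, was detected on no array by its brightest probe.

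Several marker lists moved in the same optic vesicle arrays. Of 7 measured pigment epithelium markers 4 rose, and their summed normalised intensity (linear scale) was 5205 to 5383 in KO and 1554 to 1807 in WT optic vesicle. Of 6 erythroid markers 4 rose, with sums of 4785 to 5090 in KO and 2042 to 2150 in WT. Among 10 mesenchyme markers Alx4 (2.97) and Postn (3.46) rose, with sums of 889 to 1080 in KO and 336 to 451 in WT. The median difference over this list was 0.61. Twist1, Alx1 and Col1a2 had the opposite sign without passing. Of 15 lens and surface ectoderm markers 1 rose, the keratin gene Krt18, with sums of 1321 to 1411 in KO and 793 to 892 in WT. Of the 15, 4 were detected on none of the KO optic vesicle arrays (Wnt6, Trp63, Pitx3 and Foxe3), against 10 on none of the WT optic vesicle arrays. Among the other 6 of those 10, Tfap2b was detected on 3 of 3 KO vesicle arrays, Krt8, Cldn6, Perp and Cryab on 2 of 3, and Tfap2a on 1 of 3, and none of the 6 passed. Of 5 optic vesicle and retina markers Fgf15 (-3.27) and Sfrp2 (-0.92) fell, with sums of 2071 to 2463 in KO and 3703 to 4436 in WT optic vesicle. No endothelial marker passed, with 0 of 8 at an unadjusted p below 0.05 and sums of 360 to 411 in KO and 289 to 314 in WT. The part of these cell types in the guidance gene results was not tested.

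In KO surface ectoderm, 6 of the 57 guidance genes differed from WT: Sema3c, Plxnd1, Nrp1 and Robo1 rose, and Efnb2 and Sema4d fell. Over all genes tested, 4.95% passed (2.55% higher and 2.40% lower). The median difference was 0.08 over the guidance genes and 0.02 over all genes. Arrays did not overlap between the genotypes in 21 of the 57 and in 19.2% of all genes.

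Efnb2 fell here too. Its levels were 8.62, 8.11 and 8.73 in KO surface ectoderm and 9.73, 9.80 and 9.98 in WT surface ectoderm, with no overlap. The difference of -1.35 ± 0.22 (SE) was a 2.54-fold fall (adjusted p = 0.0025), and it passed with any 1 array left out. The falls in the 2 tissues were -2.18 and -1.35, and their difference of -0.83 did not pass.

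The class 3 semaphorin gene Sema3c, whose protein guides neural crest and vessel development in the outflow tract, stood at 9.21, 8.36 and 8.84 in KO and at 7.18, 5.20 and 6.43 in WT surface ectoderm. The WT arrays were spread over about 2 units and all lay below the KO arrays, and the rise was 5.79-fold (2.53 ± 0.57 SE, adjusted p = 0.019). The call was lost without KO surface ectoderm replicate 1 (2.33, adjusted p = 0.063), KO replicate 3 (2.52, adjusted p = 0.052) or WT replicate 2 (2.00, adjusted p = 0.075). A second, dimmer probe differed by 1.24 and did not pass (adjusted p = 0.054).

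Nrp1 and Plxnd1, which encode coreceptor and receptor of class 3 semaphorins and are both known in endothelial cells, rose together. Each was detected on 3 of 3 KO surface ectoderm arrays, on 1 of 3 KO optic vesicle arrays and on no WT array. Both thus met the detection filter only through KO surface ectoderm, where they were high, so filter and call are not independent for them. Nrp1 stood at 6.21, 6.22 and 6.37 in KO surface ectoderm and at 4.25, 4.55 and 4.46 in WT surface ectoderm, where it was not detected on any array. With undetected WT arrays raised to the lowest detected signal, it was 2.85-fold higher in KO. The fitted difference was 1.85 ± 0.22 (SE, adjusted p = 1.4e-04), and the second Nrp1 probe passed at 1.66. Plxnd1 stood at 6.94, 6.41 and 6.91 in KO and at 4.55, 4.30 and 4.28 in WT surface ectoderm, again with no WT array detected. With the same floor it was 3.98-fold higher in KO (fitted difference 2.37 ± 0.29 SE, adjusted p = 1.8e-04). Its second, dimmer probe differed by 0.53 and did not pass. For this floor, each undetected array was set at its lowest detected signal or at its measured value, whichever was higher. The resulting fold is a point estimate that ignores the spread between arrays, and no lower confidence limit.

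Endothelial markers moved in the same surface ectoderm arrays. Of 8 measured, 4 rose (Pecam1, Emcn, Cldn5 and Sox17), with a median difference of 1.45 over the list. Their summed intensity was 677 to 722 in KO and 200 to 294 in WT surface ectoderm, and 5 of the 8 were detected on no WT array. Of 10 mesenchyme markers 5 rose and 1 fell, with sums of 3830 to 3862 in KO and 1962 to 2099 in WT. The marker that fell was Pdgfra, from a mean of 10.23 in WT to 7.74 in KO surface ectoderm (-2.49). Pigment epithelium markers summed to 2078 to 2366 in KO and 743 to 1280 in WT, and 4 of 7 rose (Otx2, Pmel, Dct and Otx1). Otx1 averaged 10.25 in KO and 8.21 in WT surface ectoderm. Bright genes such as Pdgfra and Otx1 weigh most on these linear sums. Of 15 lens and surface ectoderm markers 4 rose and 4 fell. Their part in the rises of Nrp1, Plxnd1 and Sema3c was not tested.

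Robo1 rose 1.74-fold in KO surface ectoderm, with values of 9.91, 9.79 and 10.05 in KO against 8.95, 9.29 and 9.10 in WT (0.80 ± 0.20 SE, adjusted p = 0.032). The arrays did not overlap. The call was lost without KO replicate 1 (adjusted p = 0.068) or 3 (0.095) or WT replicate 1 (0.10) or 3 (0.07), at values between 0.72 and 0.81. The dimmest Robo1 probe had the opposite sign, -0.43, without passing, and with the mean of the probes Robo1 differed by 0.39 (adjusted p = 0.58). Robo4, an endothelial member of the family, averaged 5.56 ± 0.88 in KO and 4.45 ± 0.18 in WT surface ectoderm (SD, n = 3 each) and did not pass (1.11, adjusted p = 0.11).

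Sema4d, a transmembrane semaphorin that signals through Plxnb1, stood at 4.39, 4.59 and 5.41 in KO and at 6.03, 7.04 and 5.99 in WT surface ectoderm. Only 1 of the 3 KO arrays detected it, and the fall was 2.94-fold (-1.55 ± 0.41 SE, adjusted p = 0.042). Leaving out KO replicate 1 (adjusted p = 0.13) or 2 (0.11) or WT replicate 1 (0.062) or 2 (0.14) ended the call, with values between -1.72 and -1.21.

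**Figure D2:**
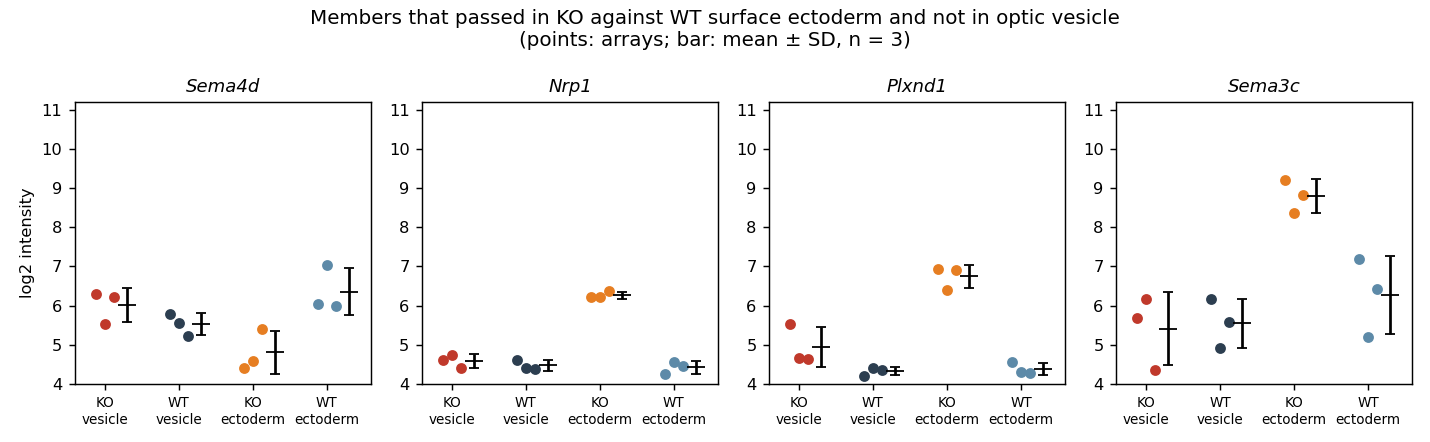
Normalised log2 intensity (vertical axis) of the 4 guidance genes that passed between KO and WT surface ectoderm and not between KO and WT optic vesicle, by group. Points are arrays and the bar is the mean ± SD (n = 3). Nrp1 and Plxnd1 lie between 4.25 and 4.55 on the WT ectoderm arrays and between 6.21 and 6.94 on the KO ectoderm arrays.

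Other guidance genes in surface ectoderm held values near the threshold. Ephb1, an EphB receptor that directs ipsilateral retinal axons, stood at 6.40, 7.38 and 6.33 in KO and at 4.32, 5.35 and 5.40 in WT (1.68, adjusted p = 0.059). Epha7 stood at 7.63, 8.04 and 7.51 in KO and at 6.90, 5.00 and 4.91 in WT (2.12, adjusted p = 0.094). On these brightest probes every KO array lay above every WT array. The other kept probes had the opposite sign without passing, -0.45 for Ephb1 and -0.33, -0.25 and -0.21 for Epha7. Sema3f differed by -0.36 (adjusted p = 0.087), and its second probe passed in the fit over all named probes (-0.44, adjusted p = 0.028). Sema6d differed by -1.19 with no overlap of arrays (adjusted p = 0.094). Its second probe passed in that fit (-1.29, adjusted p = 0.037), detected on no KO and 2 of 3 WT ectoderm arrays. Slit3 differed by -1.23 (adjusted p = 0.14) on its brightest probe and by 0.28 on its other probe, and a second Slit2 probe fell by 1.92 in the fit over all named probes (adjusted p = 0.01) while the brightest Slit2 probe did not pass (-1.05, adjusted p = 0.28). No EphA, EphB, ephrin-A, netrin, Slit, Unc5 or teneurin gene passed, with 1 of 6, 2 of 3, 0 of 3, 0 of 4, 1 of 2, 0 of 2 and 0 of 3 at an unadjusted limma p below 0.05. The teneurin differences ran from -0.29 to 0.28, the lowest p being that of Tenm2 (adjusted p = 0.52). Efna4 (0.49), Ntn3 (0.79) and Unc5b (-0.07) had the lowest p of their families, with adjusted p between 0.45 and 0.94.

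**Figure D3:**
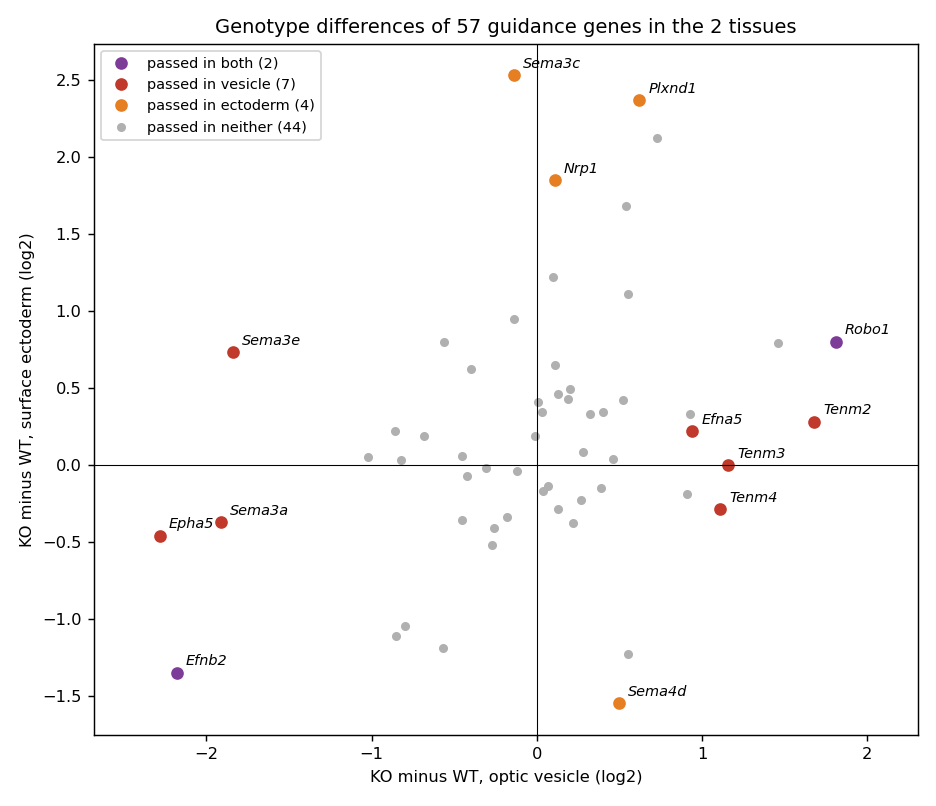
KO minus WT log2 difference in optic vesicle (horizontal axis) and surface ectoderm (vertical axis) for the 57 guidance genes, 1 point a gene, coloured by where it passed. Efnb2 (-2.18 and -1.35) and Robo1 (1.81 and 0.80) are the 2 genes that passed in both tissues on the brightest probe. The teneurins lie to the right near the horizontal zero line.

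Whether the KO difference itself differed between the tissues was tested as an interaction, the optic vesicle difference minus the surface ectoderm difference. It passed for 4 of the 57 guidance genes (7.02%), against 1.42% of all genes tested (0.813% positive and 0.604% negative). Tenm2 differed by 1.68 in optic vesicle and 0.28 in surface ectoderm, an interaction of 1.40 ± 0.28 (SE, adjusted p = 0.023). For Tenm3 the differences were 1.16 and -0.00, an interaction of 1.16 ± 0.25 (SE, adjusted p = 0.034). For Sema3a they were -1.91 and -0.37, an interaction of -1.54 ± 0.33 (SE, adjusted p = 0.031). Nrp1 differed by 0.11 in optic vesicle and 1.85 in surface ectoderm, a fitted interaction of -1.74 (adjusted p = 0.01). Nrp1 was detected on 1 of 3 KO and 0 of 3 WT optic vesicle arrays and on 3 of 3 KO and 0 of 3 WT surface ectoderm arrays, so 3 of the 4 group means lie at or near background and the size of this interaction is not measured. Nrp1 met the detection filter only through KO surface ectoderm, and the filter was set on all 12 arrays before any was left out. The Nrp1 call held in all 12 fits that left out 1 array (adjusted p 0.014 to 0.039), which is thus no independent support. It was lost on the authors' processed values (-1.82, adjusted p = 0.059). The second Nrp1 probe gave -1.48 (adjusted p = 0.061). The Tenm2 call was lost in 4 of these 12 fits (without KO optic vesicle replicate 1 or 3, KO surface ectoderm replicate 3 or WT surface ectoderm replicate 2, adjusted p up to 0.064), the Tenm3 call in 9 (up to 0.096) and the Sema3a call in 10 (up to 0.097). Tenm3 still passed without KO optic vesicle replicate 3 (1.32), KO surface ectoderm replicate 1 (1.22) or WT surface ectoderm replicate 2 (1.26), and Sema3a without KO optic vesicle replicate 2 (-1.74) or KO surface ectoderm replicate 1 (-1.61). A second Sema3a probe gave 0.23, of opposite sign, and a second Tenm3 probe 1.25, neither passing. For the other genes called in 1 tissue, among them Epha5 (-1.82), Plxnd1 (-1.75) and Sema3c (-2.67), the interaction did not pass on the brightest probe. In the fit over all named probes it passed on 2 other Epha5 probes (-1.96, adjusted p = 0.017, and -2.15, adjusted p = 0.0034) and on the second Efna5 probe (1.58, adjusted p = 0.034). The second Sema6d probe passed there too (2.09, adjusted p = 0.044), while the brightest Sema6d probe gave 0.62 without passing. That second probe was detected on no WT optic vesicle and no KO surface ectoderm array.

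The optic vesicle and the surface ectoderm were then compared within each genotype. In KO embryos 15 of the 57 guidance genes passed, 3 higher and 12 lower in optic vesicle, or 26.3% against 7.64% of all genes (3.50% higher and 4.14% lower). In WT embryos 12 passed, 3 higher and 9 lower, or 21.1% against 8.33% of all genes (4.03% higher and 4.29% lower). The median difference over the guidance genes was -0.24 in KO and -0.09 in WT embryos, and over all genes 0.01 in KO and 0.05 in WT. The values of the tissues did not overlap in 28 of the 57 in KO embryos (23.1% of all genes) and in 21 in WT embryos (27.7% of all genes). In 36 of the 57 the highest of the 4 group means was that of an ectoderm group. This count includes genes near background in all groups. The same share over all genes was not computed, so no ectoderm bias of the guidance genes is read from it. Since these comparisons share arrays with the genotype comparisons, they are given side by side only.

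Of the 3 ephrin-B genes, Efnb1 and Efnb2 were lower in optic vesicle in both genotypes. Efnb1, an X-linked ephrin-B ligand, averaged 6.42 ± 0.56 in KO optic vesicle and 8.69 ± 0.67 in KO surface ectoderm (SD, n = 3 each, difference -2.27, adjusted p = 0.0059). In WT embryos it stood at 6.65, 5.23 and 6.54 in optic vesicle and at 8.25, 9.12 and 8.48 in surface ectoderm (-2.48, adjusted p = 0.0029). For Efnb2 the differences were -1.84 in KO and -1.01 in WT embryos. The WT call of Efnb2 was lost without WT optic vesicle replicate 2 (-0.91, adjusted p = 0.063). Efnb3 was the opposite in WT embryos, higher in optic vesicle by 1.61 (adjusted p = 0.0055), and did not pass in KO embryos (0.75).

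On its brightest probe Epha5 was 9.54-fold higher in optic vesicle in WT embryos (3.25 ± 0.35 SE, adjusted p = 2.4e-05), and 3 of its 4 other probes passed there too (1.94, 2.20 and 1.14). In KO embryos no surface ectoderm array detected its brightest probe. With these arrays raised to the lowest detected signal, that probe was 2.29-fold higher in optic vesicle. The fitted difference was 1.44 (95% confidence interval 0.69 to 2.18, adjusted p = 0.02). Epha5 lost this call in 4 of 6 fits without 1 array (without KO optic vesicle replicate 1 or 3 or KO surface ectoderm replicate 1 or 3, adjusted p 0.053 to 0.086). Its 4 other probes differed by -0.01, 0.06, 0.07 and 0.21 in KO embryos and did not pass, and the mean of all probes gave 0.35 (adjusted p = 0.35). Epha1, an epithelial Eph receptor, was detected on 3 of 3 KO and 2 of 3 WT surface ectoderm arrays and on no optic vesicle array. It thus met the detection filter only through surface ectoderm, where it was high. With the same floor it was 2.48-fold lower in KO optic vesicle than in KO surface ectoderm. The fitted difference was -1.59 (95% confidence interval -2.52 to -0.66, adjusted p = 0.037). Epha1 lost this call in every fit without 1 array (adjusted p 0.058 to 0.12). Its other probes gave -1.13 and -0.54 without passing.

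Sema3a was lower in optic vesicle in both genotypes, 7.17-fold in KO (-2.84, adjusted p = 3.0e-06) and 2.46-fold in WT embryos (-1.30, adjusted p = 0.0023). Sema6d, a transmembrane semaphorin that binds class A plexins, was lower by 1.48 in KO and 2.10 in WT embryos. Its KO call was lost without KO optic vesicle replicate 2 or 3 or KO surface ectoderm replicate 1 (adjusted p 0.068 to 0.097). Its second probe differed by 0.88 in KO, the opposite sign, without passing, and by -1.21 in WT embryos, which passed, and with the mean of both probes the KO value was -0.30 (adjusted p = 0.63). Sema3c was lower by 3.39 in KO optic vesicle than in KO surface ectoderm (adjusted p = 0.0015), while its WT difference of -0.72 did not pass. In KO embryos Nrp1 (-1.69), Plxnd1 (-1.81), Plxna2 (-2.40) and Sema3e (-1.69) were lower in optic vesicle as well, and Sema5a, an axon repellent with thrombospondin repeats, by 0.94. Of these, Nrp1 and Plxnd1 met the detection filter only through KO surface ectoderm, where they were high. The Sema3e call was lost without any 1 KO optic vesicle array or KO surface ectoderm replicate 1, and the Sema5a call without any 1 KO optic vesicle array or KO surface ectoderm replicate 2 or 3. Among the semaphorins higher in optic vesicle, Sema4a was 3.08-fold higher in WT embryos (adjusted p = 0.003). Sema4f, detected on no KO surface ectoderm array, was 2.00-fold higher in KO embryos with those arrays raised to the lowest detected signal. Its fitted difference was 1.33 (95% confidence interval 0.74 to 1.92, adjusted p = 0.0071). Second probes gave 0.13 for Sema4f, -0.62 for Sema3e and -0.69 for Plxnd1 in KO embryos without passing, while those of Sema3a (-2.14), Sema3c (-1.29), Nrp1 (-1.51) and Plxna2 (-1.88) passed. The other Sema5a probes gave -0.96, -0.18 and -0.61 without passing.

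Slit3 and Robo1 were both lower in WT optic vesicle. Slit3 stood at 4.69, 5.13 and 4.41 in WT optic vesicle, where 1 of 3 arrays detected it, and at 8.21, 7.07 and 7.59 in WT surface ectoderm, a 7.38-fold difference (-2.88, adjusted p = 6.3e-04), while its other probe gave -0.66 without passing. Robo1 differed by -1.41 in WT (adjusted p = 3.2e-04) and by -0.40 in KO embryos, which did not pass. Robo2 ran the other way and was 3.96-fold higher in optic vesicle in KO embryos (1.98, adjusted p = 0.038). Its KO surface ectoderm arrays were spread from 4.83 to 7.41, and without the lowest of them, replicate 1, the difference was 1.24 (adjusted p = 0.11). The Robo2 call was also lost without any 1 KO optic vesicle array (adjusted p 0.078 to 0.12). Of its 5 other probes 2 passed there (2.49 and 2.14), and the others gave 1.62, -0.21 and -0.34.

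The teneurins Tenm2 and Tenm3 were lower in WT optic vesicle than in WT surface ectoderm. For Tenm2 the WT difference was 6.65-fold (-2.73, adjusted p = 5.5e-07) and the KO difference 2.53-fold (-1.34, adjusted p = 5.7e-04). Tenm3 differed by -1.25 in WT (adjusted p = 3.8e-04), and the KO difference of -0.09 did not pass. Efna5 was lower in WT optic vesicle by 1.01 (adjusted p = 0.0012), and its KO difference did not pass. For Tenm2, Tenm3, Efna5 and Robo1, genes that rose in KO optic vesicle, the KO vesicle mean lay between the WT vesicle mean and the KO ectoderm mean. KO vesicle and KO ectoderm arrays overlapped for Tenm3 (means 9.96 and 10.05) and Efna5 (10.43 and 10.72). Tenm4, which also rose there, had a KO vesicle mean of 9.61, above that of KO ectoderm (8.86). The WT ectoderm mean was exceeded in KO vesicle by both Tenm4 (9.61 against 9.15) and Robo1 (9.51 against 9.11).

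**Figure D4:**
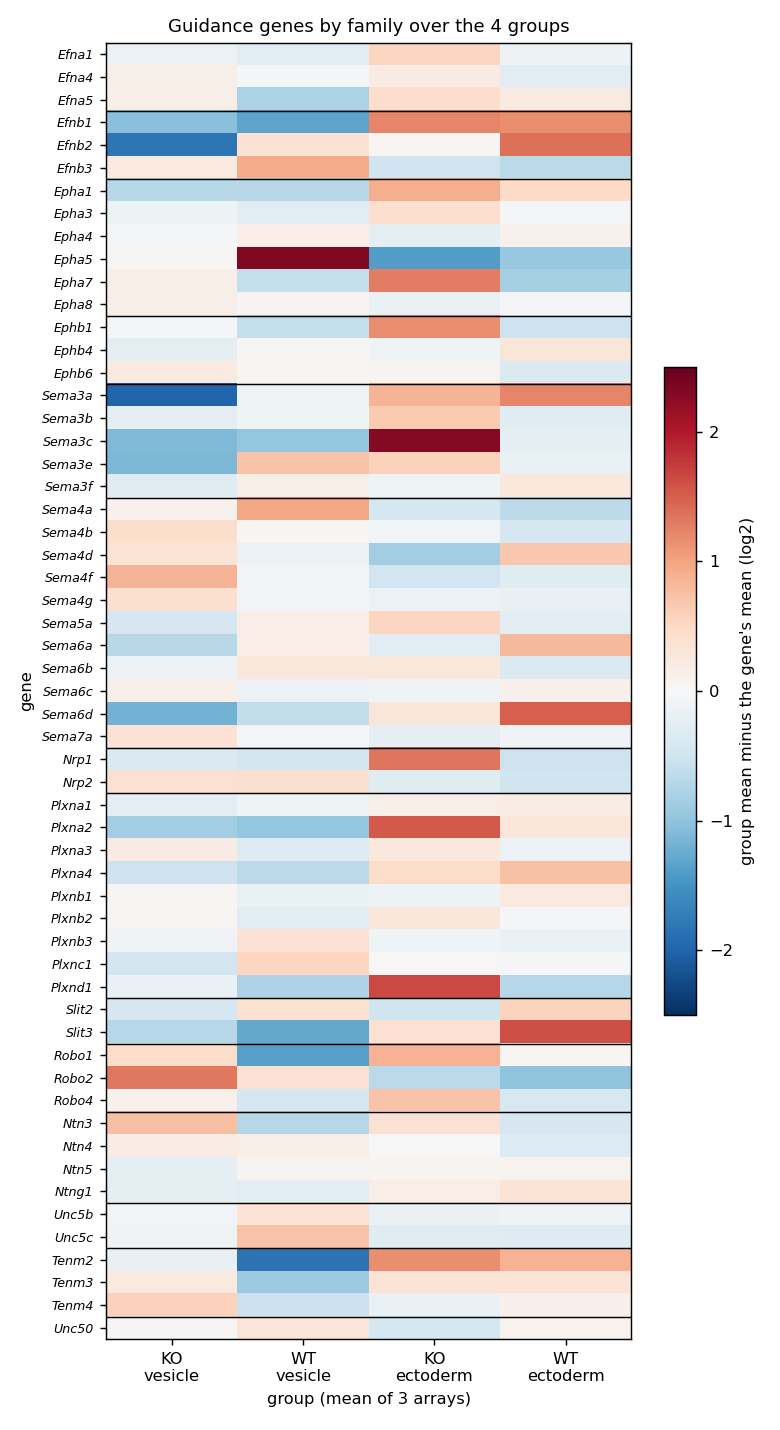
Group mean minus the mean of the gene's 4 group means (log2, colour) for the 57 guidance genes, with groups on the horizontal axis and genes on the vertical axis. Black lines divide ephrin-A, ephrin-B, EphA, EphB, class 3 semaphorins, class 4 to 7 semaphorins, neuropilins, plexins, Slits, Robo receptors, netrins, Unc5 receptors, teneurins and Unc50. Epha5 is highest in WT vesicle (mean 8.24), Sema3c in KO ectoderm (8.80), and Efnb2 in WT ectoderm (9.83).

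Among the intracellular partners of these receptors, the shares that passed were read against the 1.84% of all genes in optic vesicle and the 4.95% in surface ectoderm. Of 34 measured guidance effectors (collapsin response mediators, kinases and actin regulators among them), none passed in optic vesicle by limma and 4 had an unadjusted p below 0.05. In surface ectoderm 1 fell, Ablim1, an actin-binding LIM protein (-2.85). The median difference over these effectors was -0.00 for the vesicle and 0.09 for the ectoderm. Of 19 measured other cues and adhesion receptors (latrophilins, Flrt, Rgm, Slitrk, contactins and others), none passed in optic vesicle by limma, with 8 at an unadjusted p below 0.05. In surface ectoderm Slitrk2 rose (1.53) and Flrt2, a partner of latrophilins and Unc5 receptors, fell (-2.21). Of 8 measured dorsoventral genes of the retina, Aldh1a1 (-4.55), Tbx3 (-4.18) and Bmp4 fell and Aldh1a3 (0.85) rose in optic vesicle. In surface ectoderm none of these 8 passed, with 4 at an unadjusted p below 0.05.

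**Figure D5:**
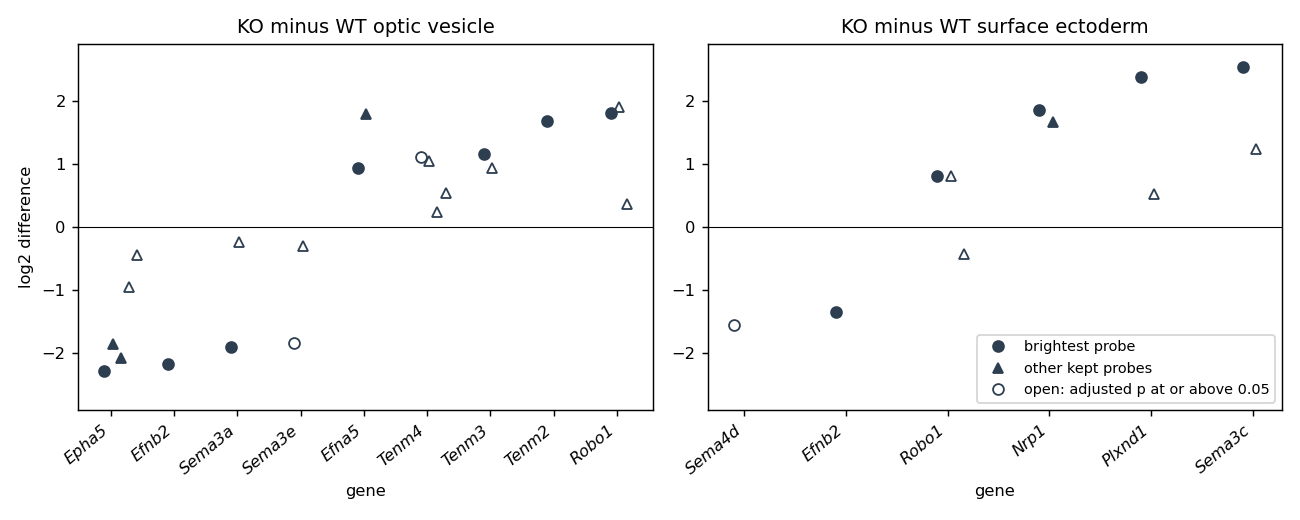
KO minus WT log2 difference (vertical axis) of every kept probe of the guidance genes that passed in optic vesicle (left) and surface ectoderm (right), from a fit over all named probes. Circles are the brightest probe, triangles the others, and open symbols did not pass in that fit. In optic vesicle all probes of a gene share its sign, and in surface ectoderm 1 Robo1 probe lies at -0.43 against 0.80 for the brightest.

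Over the 2 genotype and 2 tissue comparisons and the interaction, 23 of the 57 guidance genes passed at least once on the brightest probe and 34 never. The 34 were Efna1, Efna4, Epha3, Epha4, Epha7, Epha8, Ephb1, Ephb4, Ephb6, Nrp2, Ntn3, Ntn4, Ntn5, Ntng1, Plxna1, Plxna3, Plxna4, Plxnb1, Plxnb2, Plxnb3, Plxnc1, Robo4, Sema3b, Sema3f, Sema4b, Sema4g, Sema6a, Sema6b, Sema6c, Sema7a, Slit2, Unc50, Unc5b and Unc5c. More than 1 kept probe was present for 31 of the 57, and probes of a gene differed in size, in call or in sign for some of them, so that a call can depend on the probe. Among the 34, a second probe of Sema3f and a second probe of Slit2 passed in the fit over all named probes. The 16 genes below the detection filter were Dcc, Efna2, Efna3, Epha2, Epha6, Epha10, Ephb3, Ntng2, Sema3d, Sema3g, Sema4c, Slit1, Tenm1, Unc5a, Unc5cl and Unc5d, and their levels were not analysed here. The median within-group SD was 0.28 for the guidance genes and 0.30 for all genes.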

How the data were processed

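The authors deposited the mean bead intensity of each probe on each array with its bead standard error, the number of beads (another unit, median 40 to 43) and a detection p-value. Per the file headers these are unnormalised scanner values, and GenomeStudio is named per the submitters' processing notes, its version not given in the sources used here. A second deposited table holds processed intensity values on a linear scale, with background and scaling options unstated; it served as an alternative.

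Intensities were normalised with neqc (limma 3.58.1, R 4.3.3: background from detection p-values, offset 16, quantile, log2). Of 45281 probes, 34885 have 1 gene symbol in the platform annotation, 18 several and 10378 none; only the first were named. Probes with a detection p-value below 0.05 on at least 3 of 12 arrays were kept (24978 probes). Per gene the kept probe with the highest mean raw intensity was used.

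All 12 arrays entered 1 limma fit of 4 group means (eBayes with trend, no block), two-sided, with Benjamini-Hochberg adjustment over 11924 genes for each of 5 comparisons. The number of arrays limits the precision. On simulated data with the optic vesicle design, 80 of 100 genes changed by 2 (log2) and 23 of 100 changed by 1 were recovered, with 11 false calls among 11724 unchanged genes. The genes and lists were chosen with earlier results of these data known. Named with values are all guidance genes that passed, the gene with the lowest p per family in the genotype comparisons, and Bmp4; others complete a family or a count. Lists are described by counts and medians, with no test of a list. Alternatives were 12 settings per genotype or tissue comparison, among them slide, probe choice, filters and background correction. Fits that left out each array in turn were added to these. A gene result thus had 18 alternatives in a genotype or tissue comparison and 23 for the interaction.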

Additional observations from a re-analysis of the deposited data

Results flagged for a closer look

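For 4 guidance genes the interaction term of the limma fit passed (optic vesicle difference minus surface ectoderm difference). Of 23 alternatives, the call was lost under 15 for Sema3a, 15 for Tenm3, 7 for Tenm2 and 4 for Nrp1. With a block for the replicate number none of the 4 passed. A second Sema3a probe gave 0.23, of opposite sign, without passing. The interaction was -1.54 for Sema3a (95% confidence interval -2.25 to -0.84), 1.40 for Tenm2 (0.79 to 2.00) and 1.16 for Tenm3 (0.62 to 1.71). For Nrp1 the fitted value was -1.74, with 3 of the 4 groups at or near background, so its size is not measured. Nrp1 also met the detection filter only through KO surface ectoderm, where it was high. The Nrp1 call was lost on the authors' processed values (-1.82, adjusted p = 0.059). Endothelial and mesenchymal marker sums differed between KO and WT surface ectoderm in the same arrays as Nrp1, and pigment epithelium and erythroid marker sums between KO and WT optic vesicle in the same arrays as Sema3a and the teneurins. Their part in these 4 results was not tested.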

How the results depend on the processing

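The 46 gene results that passed gave 848 values under the alternatives: 642 kept the call, 206 lost it and 0 changed direction. Within slide 1 the number of guidance genes that passed was 0 in KO against WT optic vesicle, 0 in surface ectoderm, 0 and 1 between tissues in KO and WT embryos, and 0 for the interaction; slide 1 has 1 vesicle array per genotype. Within slide 2, which has 1 ectoderm array per genotype, these numbers were 4, 0, 3, 6 and 0, so counts that use the vesicle on slide 1 or the ectoderm on slide 2 rest on single arrays, assumed to vary like the other groups. Within slides the 9 vesicle and 6 ectoderm differences kept their sign (Efnb2 -2.04 on slide 1 and -2.25 on slide 2, Robo1 1.32 and 2.06), and with slide as a block 8 and 5 genes passed between the genotypes. Fewer arrays enter a fit within a slide. Leaving out 1 array gave 7 to 8 guidance genes in optic vesicle, 4 to 7 in surface ectoderm, 9 to 13 and 11 to 14 between tissues in KO and WT embryos, and 1 to 5 for the interaction. Residuals of arrays that share a replicate number correlated between -0.04 and 0.02, so the numbers give no sign of pairing; with the replicate block 7 and 5 guidance genes passed between the genotypes, 12 and 12 between tissues, and 0 for the interaction. The Nrp1 interaction was lost under 4 of 23 alternatives: with that block (adjusted p = 0.065), within slides 1 (0.69) and 2 (0.17), and on the authors' processed values. Over all genes, array weights gave 416 calls in optic vesicle, against 219 without weights, and 343 in surface ectoderm, against 590; a fit of the 2 ectoderm groups alone gave 242, the replicate block 88 for the interaction against 169, fits without 1 array 117 to 150 in optic vesicle, as few as 377 in surface ectoderm, 615 between tissues in WT embryos against 993, and 95 for the interaction. Within slides 1 and 2 the calls over all genes were 0 and 65 in optic vesicle, 19 and 119 in surface ectoderm, 58 and 381 and 76 and 417 between tissues in KO (911 on both slides) and WT embryos, and 0 and 7 for the interaction. The causes were not tested. The other settings left each count of guidance genes within 1.5 times its value. Without background correction all 46 differences shrank, Nrp1 in surface ectoderm to 0.72 and Plxnd1 to 1.00, both still passing. For dim probes, such as Nrp1, Plxnd1 and Epha1 where undetected, the size of a difference is not measured.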
